A study of Mus musculus with 8 samples.

Results

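Clonotypes whose CDR3 (the third complementarity-determining region) carries a cysteine besides its first residue made up 3139 of the 113380 rearrangements listed for 8 mice with melanoma, in their own CD8+ T cells (endogenous T cells, en-T). A row was taken as a member where its CDR3 amino acid sequence started with C, ended with F or W and held at least 1 more C. The alpha chain gave 168 members of 53249 clonotypes, and the beta chain gave 2971 members of 60131. A clonotype here is 1 CDR3 nucleotide sequence in 1 library, so members are not replicates of a condition, and groups were compared over mice.

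The CDR3 is made where a V segment is joined to a J segment, with a D segment in between in the beta chain, and it is the part of the receptor that lies over the presented peptide. Its first residue is a conserved cysteine of the V segment, and its last is a conserved phenylalanine or tryptophan of the J segment. A further cysteine can be carried in by a germline segment, or be made anew when segment ends are trimmed and bases are added at the joint. A cysteine close to the middle of the CDR3 is known from the receptors of self-reactive thymocytes, and such receptors are uncommon among conventional mature T cells.

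The mice were female C57BL/6 animals, 6 to 8 weeks of age, with intradermal B16F10 melanoma. All received 300 mg/kg cyclophosphamide on day 3 and on day 5 Pmel-1 T cells, CD8+ donor cells that bear the Thy1.1 mark and a gp100-specific transgenic receptor, with IL-2 on 3 days. The group labelled CTX (here CTXpre, n = 3 mice) received nothing more, whereas the group labelled CTX_CD4 (CTXpre/CD4post, n = 5 mice) was also given 200 μg of the anti-CD4 antibody GK1.5 weekly for 3 weeks from day 10. On day 25, Thy1.1-negative CD8+ cells of lymph nodes and spleen were sorted, and alpha and beta chain transcripts were amplified from their RNA. No untreated mice were among the samples, so the regimen itself has no control here.

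Each of the 16 libraries summed to exactly 10000 reads, to which the authors had thinned it. The libraries held 5043 to 7695 alpha clonotypes and 5671 to 8529 beta clonotypes. Reads count amplified transcripts, so more cells of a clonotype and more receptor RNA per cell cannot be told apart. One pair of mice shared the most beta member sequences. CTXpre/CD4post mice 1 and 2 shared 8 beta member sequences, whereas the remaining 27 pairs of mice shared 0 to 5, and they shared 0 alpha member sequences. Mouse 2 also shared 4 or 5 beta ones with CTXpre mouse 1 and CTXpre/CD4post mice 3 to 5, but 0 and 1 with CTXpre mice 2 and 3. These counts were not set against the number of clonotypes in each pair. Every result with an adjusted p was therefore also computed without mouse 2, and values are given where this changed a direction or a call. For sequences shared between mice, this took mouse 2 out of the mean only. Sequences of other mice that were found in mouse 2 still counted as shared. Segments typical of other T cells were looked for among the members. None of the 31 alpha clonotypes that joined the TRAV11 family to TRAJ18, as invariant NKT cells do, was a member, which allows a share of up to 9.68%. None of the 12 that joined TRAV1 to TRAJ33, as MAIT cells do, was a member either, which allows up to 25.0%. Members were 168 of all 53249 alpha clonotypes, so sets this small would seldom hold one, and finding none says little. TRBV14, the beta segment of the Pmel-1 receptor, gave 6 members of 2684 clonotypes (0.224%). For comparison, members with any V segment but TRBV1, which is described next, were 150 of all 60131 beta clonotypes.

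The beta chain members came almost wholly from 1 segment, whose germline sequence holds the codon. TRBV1 (the Vβ2 segment, GRCm38 chr6:40891229-40891885, + strand) ends in codons for cysteine, threonine, cysteine, serine and alanine and 2 further bases, so an unaltered TRBV1 brings a cysteine to CDR3 position 3, counting the first cysteine as 1. TRBV31 (chr6, - strand) has a tryptophan codon at that place, and TRBV22 has a cysteine codon farther in. The CDR3 parts of their last exons are printed from the GENCODE vM21 models on GRCm38, 5′ to 3′, with the codon for the residue in question in capitals.
TRBV1, chr6:40891869-40891885: tgcaccTGCagtgcaga
TRBV22, chr6:41212519-41212534: tgtgccagcagtTGTc
TRBV31, chr6:41557691-41557706, - strand: tgtgccTGGagtctca

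Of 2839 TRBV1 clonotypes, 2821 were members (99.4%), and these were 94.95% of all beta members and 95.7% of their reads. The cysteine codon matched the germline base for base in 2817 of them. Cysteine stood at position 3 in 2826 TRBV1 clonotypes, 5 of which were left out because the CDR3 did not end with F or W. The 13 TRBV1 clonotypes that had lost the cysteine summed to 16 reads, the highest having 2, and in all 13 the match to germline V stopped at or before base 8, short of the end of the cysteine codon. A match that short was uncommon in TRBV1, though match length does not tell a trimmed end from a changed base. A germline match of 8 or fewer bases was found in 0.599% of TRBV1 clonotypes, and among the 20 beta V segments with at least 200 clonotypes the share ran from there up to 13.6% in TRBV20. TRBV12-2 and TRBV3, at 0.676% and 0.702%, were close to TRBV1. The 4-residue germline opening was kept in 95.2% of TRBV1 clonotypes, and 75.2% also kept the alanine after it.

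TRBV22 gave 2 members of 11 clonotypes, of which 1 held the germline cysteine. No J segment encoded an internal cysteine in the CDR3 frame, as far as that frame could be set, which was uncertain for TRAJ44 and TRAJ7. The alpha segment TRAV23 gave a single clonotype, a member, whose germline CDR3 start could not be set with certainty.

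Beta members with other V segments (150 clonotypes, 170 reads) and alpha members (168 clonotypes, 217 reads) were rare, and nearly all of their cysteine codons had no full match in a germline segment. Apart from 1 cysteine codon each in TRBV22 and TRAV23, none of the 151 codons in the former or the 170 in the latter matched a germline segment in full. In the alpha chain, 85 cysteine codons (50.0%) took their last 1 or 2 bases from the J segment, 63 (37.1%) had no base in the germline match, 13 took their first base from V, and 8 joined a first base of V to the last bases of J. In the beta chain without TRBV1, 60 (39.7%) ended in J bases, 49 (32.5%) had no germline V or J base and 41 (27.2%) began in V. Outside TRBV1 the codon ending in C and the one ending in T were used about equally, in 91 and 79 alpha codons and in 79 and 72 beta codons, whereas in TRBV1 2819 of 2823 ended in C.

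Many of those that began in V lay at the tryptophan codon of TRBV31. TRBV31 gave 22 members of 2233 clonotypes (0.985%), the highest share of any beta segment after TRBV1 among those with at least 200 clonotypes. Of its 22 cysteines, 19 stood at position 3, and in all 19 the first 2 codon bases were the germline ones, with only the last base changed. None of them had over 3 reads. The next highest share was that of TRBV20, with 7 of 1515 clonotypes (0.462%). By number, TRBV13-3 (18 members), TRBV12-1 (14) and TRBV13-1 (10) followed TRBV31.

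The deposited segment borders placed some of these cysteines inside a J segment. These borders run past mismatches: they equalled the exact germline end in 68.6% of alpha and 79.2% of beta clonotypes for V, and in 73.0% and 79.1% for J. By those borders, 30 alpha and 21 beta cysteines lay wholly within J, and 22 and 18 of them, respectively, differed by 1 base from the J codon at the same place. The germline codon was one for tyrosine in 7 of the 30 alpha cases and 12 of the 21 beta cases. Tyrosine did not lead in the alpha chain. There the germline codon was that for tryptophan behind 6 cysteine codons ending in T and 2 ending in C, and one for glycine behind 6. Of these cysteines, 27 alpha and 16 beta ones were in clonotypes of 1 read. The part of amplification or sequencing errors in these cysteines was not tested. By the same borders, 25 further alpha cysteines and 16 in beta segments other than TRBV1 lay wholly within V. The exact match to germline V ended before these codons did. The term junctional is used below for members with a cysteine codon that the deposited borders do not place wholly in V or J (112 alpha and 115 beta clonotypes). It leaves out these cases in V as well as those in J.

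**Figure D1:**
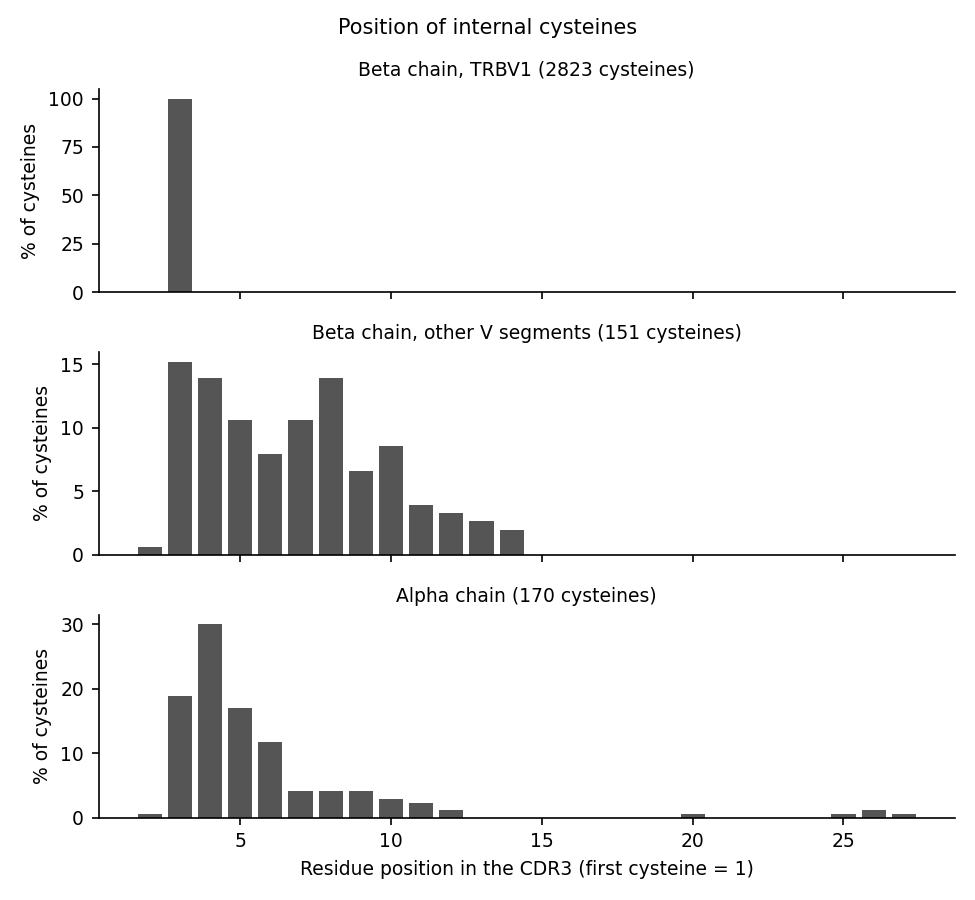
Position of each internal cysteine along the CDR3 (x axis, residue number with the first cysteine as 1) as a percent of all internal cysteines of that set (y axis, a separate scale in each panel). TRBV1 stands at position 3, alpha cysteines peak at position 4, and those of other beta segments spread from position 3 to 14 with 1 at position 2.

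The position of the cysteine differed between the 3 sets. In TRBV1, 2821 of 2823 internal cysteines stood at position 3 and the other 2 were second cysteines at positions 9 and 10. In the alpha chain, position 4 held most (51 of 170, 30.0%), then position 3 (32) and position 5 (29), and 141 lay before the midpoint of their CDR3 while 25 lay after it. In the other beta segments the cysteines were spread, with 23 at position 3 and 21 at position 8 among 151, and 74 lay before the midpoint against 61 after it. A central cysteine, at most 2 residues from the midpoint, was found in 55 alpha members, in 75 beta members without TRBV1 and in 3 TRBV1 members.

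More than 1 internal cysteine was found in 4 clonotypes, none with over 2 reads. They are shown with the cysteine codons in capitals.
Alpha, TRAV8D-1 with TRAJ40, CTXpre mouse 3: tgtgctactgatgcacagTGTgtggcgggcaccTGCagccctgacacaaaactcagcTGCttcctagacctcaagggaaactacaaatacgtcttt
Beta, TRBV12-2 with TRBJ2-7, CTXpre mouse 3: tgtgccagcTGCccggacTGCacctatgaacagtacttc
Beta, TRBV1 with TRBJ2-1, CTXpre mouse 2: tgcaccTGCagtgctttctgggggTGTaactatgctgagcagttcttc
Beta, TRBV1 with TRBJ2-4, CTXpre mouse 3: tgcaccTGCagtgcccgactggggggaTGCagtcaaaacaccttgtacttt
The alpha clonotype, with 3 internal cysteines, was 32 residues long and had 62 bases outside the germline match. The 3 beta clonotypes had 1 read each.

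Cysteine was the rarest of the 20 residues encoded by codons outside the exact germline match. Over all clonotypes without TRBV1, codons with no base in the exact V or J match were read, D segment bases included. That match stops at the first mismatch, so germline bases beyond a mismatch are counted here together with bases added at the joint. In the alpha chain, 65 of 39795 such codons were cysteine (0.163%, range over mice 0.0759% to 0.275%), and methionine was next with 272 (0.684%). In the beta chain, 49 of 156722 were cysteine (0.0313%, range 0.0145% to 0.0461%), and methionine was next with 433 (0.276%). Cysteine was the rarest residue in 8 of 8 mice in either chain. It was far below tryptophan, which has 1 codon to the 2 of cysteine and shares their first 2 bases: tryptophan took 748 of the alpha codons and 7780 of the beta codons.

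**Figure D2:**
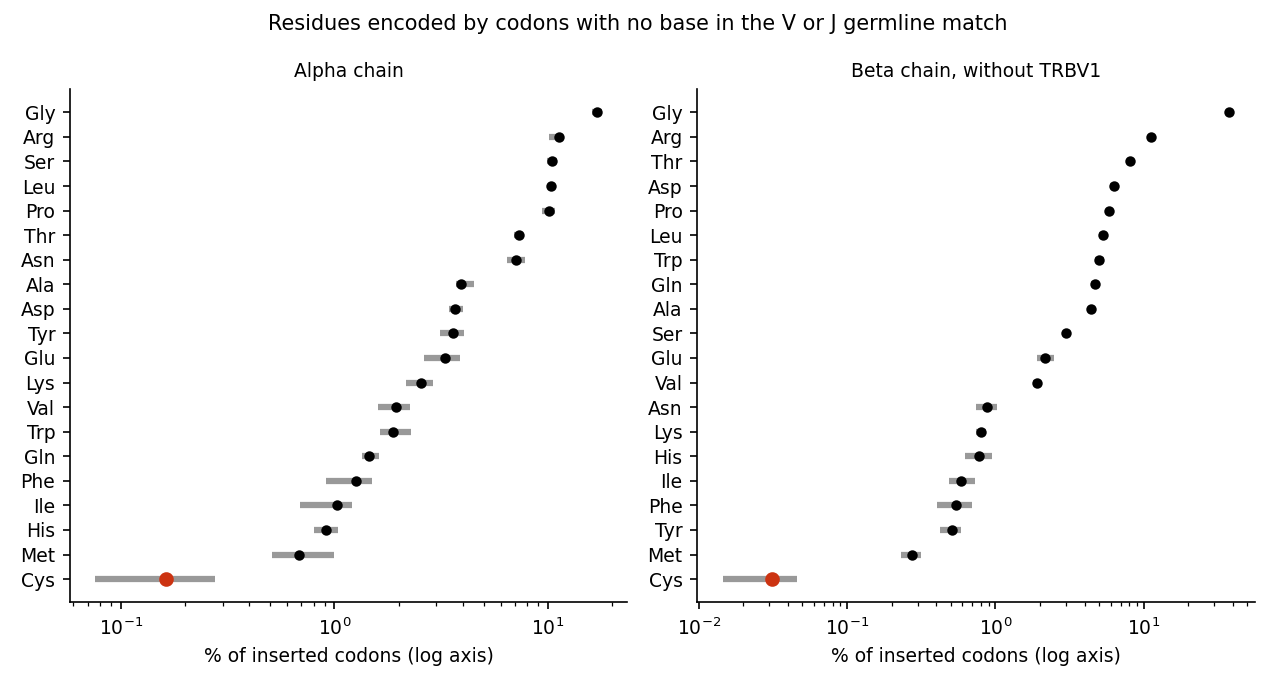
Share of each residue among codons with no base in the exact V or J germline match, as a percent on a log axis, in the alpha chain and in the beta chain without TRBV1. Points are all 8 mice together and grey bars run from the lowest to the highest mouse; cysteine, in red, is lowest in both chains, at 0.163% and 0.0313%.

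The same bases were then read out of frame. Tryptophan triplets, some of them in D segment bases, also varied with the frame. The percent below therefore depends on both kinds of triplet, and the frames are not matched in triplet use. Among cysteine and tryptophan triplets in these bases, the cysteine ones made up 18.8% in the 2 other frames of the alpha chain (881 against 3815 tryptophan triplets). In the codon frame they made up 8.00% (65 against 748). In the beta chain they made up 5.96% in the other frames (875 against 13817) and 0.626% in the codon frame (49 against 7780). The codon frame was lower in every mouse, and its range did not overlap that of the other frames: 3.23% to 11.6% against 17.0% to 21.6% in the alpha chain, and 0.290% to 0.928% against 5.51% to 6.71% in the beta chain. The mice of both treatments overlapped in the codon frame, where CTXpre ran from 3.23% to 10.9% and CTXpre/CD4post from 5.00% to 11.6% in the alpha chain. No test was made, since the frames share the same clonotypes.

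**Figure D3:**
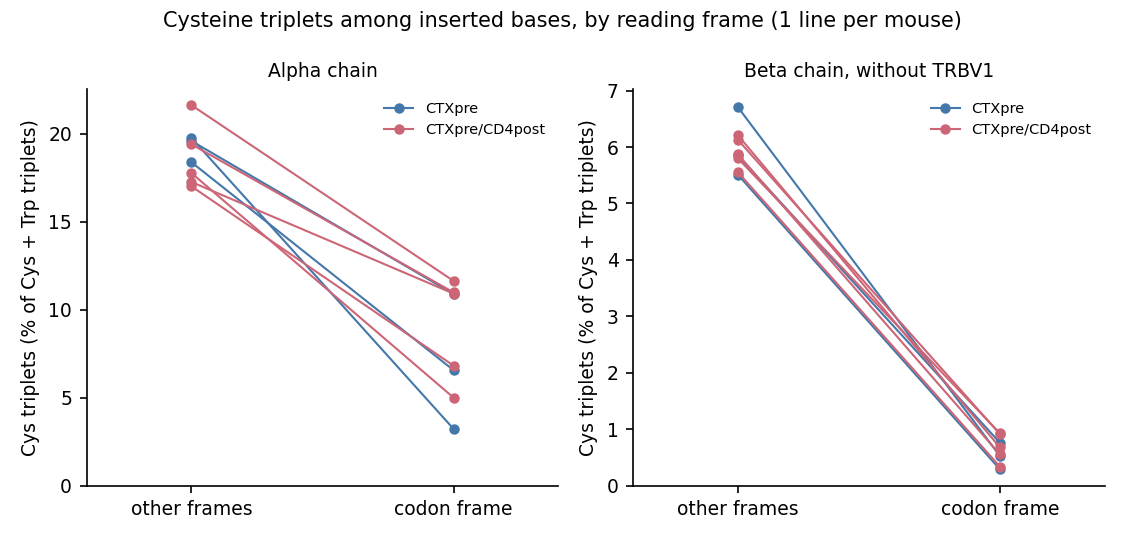
Cysteine triplets as a percent of cysteine plus tryptophan triplets among bases outside the exact V or J match (y axis, from 0), in the 2 other reading frames and in the codon frame. Each mouse is 1 line, coloured by group. Every line falls towards the codon frame, in the alpha chain from 17.0% or more to 11.6% or less, and in the beta chain to below 1%.

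Whether anti-CD4 treatment went with a different share of these clonotypes was asked next. Beta members made up 4.97%, 4.63% and 4.45% of the clonotypes of CTXpre mice 1 to 3, and 4.84%, 4.98%, 4.88%, 6.03% and 4.87% of those of CTXpre/CD4post mice 1 to 5. CTXpre/CD4post mouse 4 was highest, with 421 members of which 411 carried TRBV1, while the other 7 mice lay close together. The means were 4.68% ± 0.26 (SD, n = 3 mice) and 5.12% ± 0.51 (n = 5 mice), and the groups overlapped (exact two-sided Mann–Whitney test, p = 0.25, adjusted p = 1). The difference of 0.436 percentage points was 0.209 without CTXpre/CD4post mouse 4, and 1.48 among clonotypes of 2 or more reads (exact test, p = 0.0714). As a percent of reads, members reached 4.67% ± 0.40 and 5.19% ± 0.62 (exact test, p = 0.393, adjusted p = 1).

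The beta members without TRBV1 numbered 25, 19 and 16 in the CTXpre mice, and 13, 25, 22, 10 and 20 in the CTXpre/CD4post mice. CTXpre/CD4post mouse 4, highest in TRBV1 members, was thus lowest in the others. Junctional beta members were 0.192% ± 0.018 of clonotypes in CTXpre and 0.193% ± 0.066 in CTXpre/CD4post (exact Mann–Whitney test, p = 1, adjusted p = 1), and the sign of this small difference turned without CTXpre/CD4post mouse 2 (-0.0045 percentage points). A central cysteine was found in 0.151% ± 0.032 and 0.114% ± 0.021 (exact test, p = 0.143, adjusted p = 1).

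Alpha members numbered 20, 26 and 24 in the CTXpre mice, and 18, 29, 14, 17 and 20 in the CTXpre/CD4post mice. They were 0.321% ± 0.038 and 0.313% ± 0.076 of clonotypes (exact test, p = 1, adjusted p = 1) and 0.300% ± 0.075 and 0.254% ± 0.086 of reads (exact test, p = 0.732, adjusted p = 1). Junctional alpha members were 0.220% ± 0.024 and 0.202% ± 0.040 (exact test, p = 0.571, adjusted p = 1), and central ones 0.118% ± 0.035 and 0.0924% ± 0.026 (exact test, p = 0.786, adjusted p = 1). None of these 8 comparisons passed, and p-values were adjusted over them. With 3 against 5 mice the smallest p of the exact Mann–Whitney test is 0.0357 before adjustment. A single comparison at that value would not pass after adjustment over 8. The adjusted values therefore cannot show that the groups are alike. With 9 to 19 junctional alpha members in a library, counting error alone is wide: the 95% Wilson interval for all alpha members ran from 0.180% to 0.428% in CTXpre mouse 1.

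**Figure D4:**
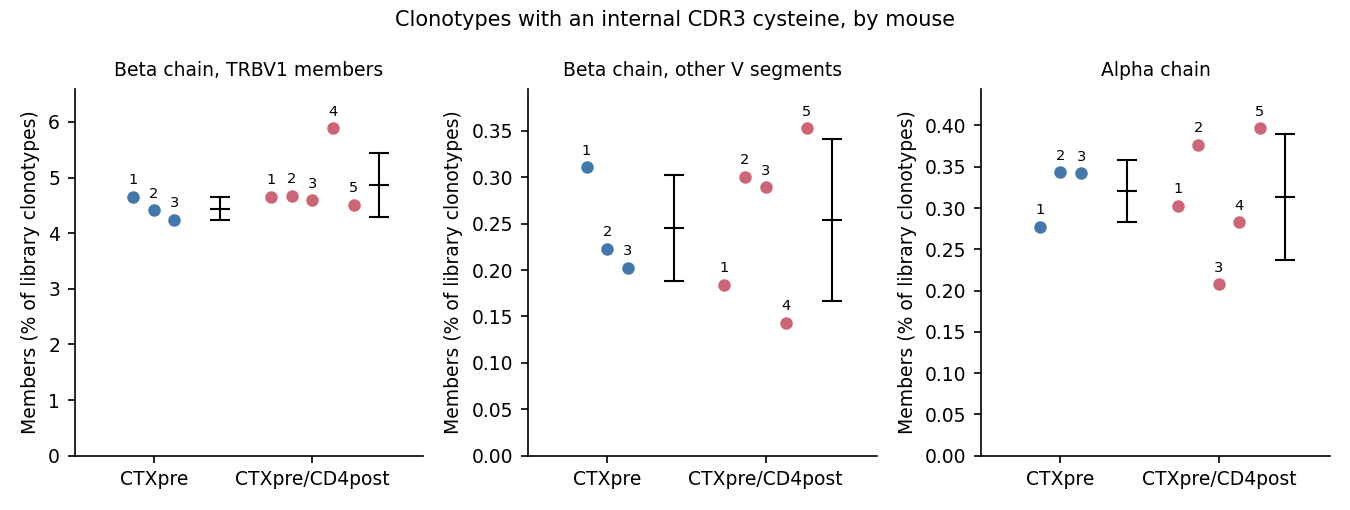
Members as a percent of all clonotypes of the library (y axes from 0, separate scales), for beta TRBV1 members, beta members with other V segments and alpha members. Points are mice with their replicate number, and bars give mean ± SD for CTXpre (n = 3) and CTXpre/CD4post (n = 5); CTXpre/CD4post mouse 4 lies above the rest for TRBV1, at 5.89%, and lowest for the other beta segments.

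Reads per clonotype were compared between members and the rest of the same library. In every mouse, junctional beta members had fewer reads than the clonotypes without an internal cysteine in the same library. They averaged 1.18, 1.06 and 1.00 reads in CTXpre mice 1 to 3 against 1.25, 1.17 and 1.27 in the rest, and 1.17, 1.06, 1.00, 1.14 and 1.00 reads in CTXpre/CD4post mice 1 to 5 against 1.41, 1.20, 1.32, 1.43 and 1.76. The difference was -0.275 ± 0.217 reads (mean ± SD, lower in 8 of 8 mice, exact two-sided sign-flip test, p = 0.0078, adjusted p = 0.0156), and p = 0.0078 is the smallest that 8 mice allow. None of the 115 junctional beta members had over 2 reads, and other beta clonotypes reached 162, but the highest counts of sets so unlike in size cannot be compared. Of the 57160 clonotypes in the rest, 0.436% had 10 or more reads, and a count of 0 in 115 allows a share of up to 2.61%. Clonotypes of that size raise the mean of the rest, so a small set can fall below it for lack of them. The share seen with 1 read was 92.4% against 82.9% on average, higher in 7 of 8 mice (exact test, p = 0.0156, adjusted p = 0.0234), though this call was lost among clonotypes with 3 or more bases assigned to no segment (difference 7.45 percentage points, exact sign-flip test, p = 0.0859).

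For TRBV1 members, no such difference in reads passed the test. They averaged 1.37 reads against 1.35, higher in 5 of 8 mice (difference 0.0243 reads, exact sign-flip test, p = 0.445). The share with 10 or more reads was 0.461% in TRBV1 members (13 of 2821) and 0.436% in the clonotypes without an internal cysteine (249). All 13 abundant members were beta clonotypes with TRBV1. One was in a CTXpre mouse, out of 30 beta clonotypes of that size in the group, and 12 were in CTXpre/CD4post mice, out of 232.

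Junctional alpha members averaged 1.36 reads against 1.53 in the rest, lower in 6 of 8 mice, a difference of -0.170 ± 0.293 that did not pass (exact sign-flip test, p = 0.141, adjusted p = 0.169). CTXpre mouse 3 decided this: without it the difference was -0.242 (exact test, p = 0.0313). With all 168 alpha members the difference was -0.248 (p = 0.0313, exact test). Their share with 1 read was 77.4% against 74.8% (exact test, p = 0.477, adjusted p = 0.477). No alpha member reached 10 reads, which with 168 members allows a share of up to 1.79%, beside 0.567% in the rest. A difference between treatments in this measure was not shown. Junctional members minus the rest averaged -0.0117 ± 0.305 in CTXpre and -0.264 ± 0.272 in CTXpre/CD4post for the alpha chain (exact Mann–Whitney test, p = 0.393, adjusted p = 0.393), and -0.147 ± 0.105 and -0.352 ± 0.239 for the beta chain (exact test, p = 0.143, adjusted p = 0.286).

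Members were also found in other mice less often than the rest. A clonotype was called shared where the same nucleotide sequence was listed for another of the 8 mice in the same chain. Each shared sequence enters the value of every mouse that holds it. The differences of the 8 mice are thus not independent, although the test treats them so. In the alpha chain, 14.3%, 5.88% and 0% of junctional members of CTXpre mice 1 to 3 were shared, and 0%, 5.26%, 7.69%, 0% and 0% of those of CTXpre/CD4post mice 1 to 5. In the clonotypes without an internal cysteine this was 25.9% to 29.2%, so that the ranges did not overlap. The difference was -23.5 ± 6.09 percentage points (lower in 8 of 8 mice, exact sign-flip test, p = 0.0078, adjusted p = 0.0156). It shrank to -7.90 (exact test, p = 0.0156) among clonotypes with 3 or more unassigned bases. Alpha members had a median of 4 bases outside the germline match against 3 in the rest, and 12.03% of the rest but 1.19% of members had none.

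In the beta chain, 0 of the 115 junctional members were shared, which allows a share of up to 2.61%, against 4.12% to 6.19% of the rest (difference -4.87 ± 0.676, lower in 8 of 8 mice, exact sign-flip test, p = 0.0078, adjusted p = 0.0156). The difference was -2.27 (exact test, p = 0.0078) among clonotypes with 3 or more unassigned bases, a size within the limit of 2.61%. It was -10.1 (exact test, p = 0.0078) with clonotypes merged by amino acid sequence, and -3.73 (exact test, p = 0.0078) with 6 or more bases outside the germline match and cysteines set by exact match. Where members are at 0 in every mouse, each difference is negative and the test gives its smallest p whatever the number of members. The CTXpre/CD4post libraries held 7 to 18 junctional beta members, few enough for a 0 to arise by counting alone. The limit of 2.61% is therefore the better guide to these differences. TRBV1 members were shared in 1.19% to 6.17%, below the rest in 7 of 8 mice (difference -1.36, exact test, p = 0.0391). The exception was CTXpre/CD4post mouse 2, one of the pair with many sequences in common.

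**Figure D5:**
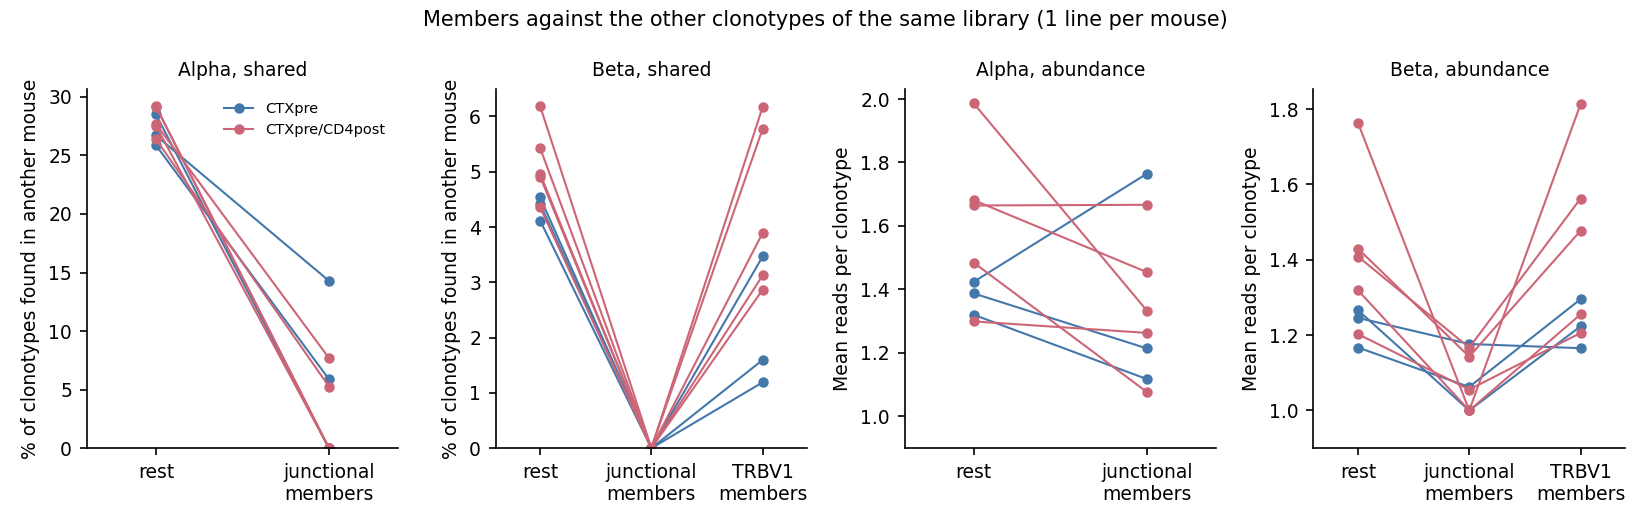
For each mouse (1 line, coloured by group), the percent of clonotypes also found in another mouse (left pair, y axes from 0) and the mean reads per clonotype (right pair, y axes from 0.9), in clonotypes without an internal cysteine (rest), in junctional members and, for the beta chain, in TRBV1 members. Junctional beta members lie at 0% shared and below the rest in reads in all 8 mice, while TRBV1 members run from 1.17 to 1.81 reads, close to the range of the rest (1.17 to 1.76).

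The members with most reads, and those in most mice, are printed to show where the cysteine codon falls. The first set holds the beta member with most reads in each mouse. All carried TRBV1, and the capitals mark the germline cysteine codon.
TRBV1 with TRBJ2-4, CTXpre mouse 1: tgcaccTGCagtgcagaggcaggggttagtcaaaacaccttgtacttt
TRBV1 with TRBJ2-3, CTXpre mouse 2: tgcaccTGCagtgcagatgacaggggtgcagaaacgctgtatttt
TRBV1 with TRBJ2-3, CTXpre mouse 3: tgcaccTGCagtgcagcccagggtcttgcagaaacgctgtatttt
TRBV1 with TRBJ2-7, CTXpre/CD4post mouse 1: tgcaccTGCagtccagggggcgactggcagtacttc
TRBV1 with TRBJ2-7, CTXpre/CD4post mouse 2: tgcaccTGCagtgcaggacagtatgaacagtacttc
TRBV1 with TRBJ2-4, CTXpre/CD4post mouse 3: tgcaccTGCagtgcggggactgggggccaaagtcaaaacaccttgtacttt
TRBV1 with TRBJ2-1, CTXpre/CD4post mouse 4: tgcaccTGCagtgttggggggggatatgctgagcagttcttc
TRBV1 with TRBJ2-7, CTXpre/CD4post mouse 5: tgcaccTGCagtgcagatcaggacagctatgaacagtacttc

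The leading member of CTXpre mouse 2 had 58 reads, 0.58% of its library (95% Wilson interval 0.449% to 0.749%), and was the most abundant beta clonotype there. Those of CTXpre mice 1 and 3 had 6 and 7 reads and ranked 26 and 13 in their libraries, the latter tied between 2 members. Those of CTXpre/CD4post mice 1 to 5 had 45, 15, 14, 27 and 34 reads and ranked 3, 6, 15, 6 and 19 in their libraries. The groups overlapped, since the highest value of all was in a CTXpre mouse. The leading member of CTXpre/CD4post mouse 1 also had 3 reads in mouse 2, and another member with TRBJ2-3 had 21 reads in mouse 1 and 2 in mouse 2. The leading member of CTXpre/CD4post mouse 2 had 6 reads in mouse 5.

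Of 2918 beta member nucleotide sequences, 47 were found in 2 or more mice and 6 in 3 mice, the most for any. All 47 carried TRBV1. The 3 of the 6 with most reads are printed, with the cysteine codon in capitals.
TRBV1 with TRBJ1-4, 9 reads: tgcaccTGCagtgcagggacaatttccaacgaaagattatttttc
TRBV1 with TRBJ2-1, 8 reads: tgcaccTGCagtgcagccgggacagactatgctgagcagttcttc
TRBV1 with TRBJ2-7, 5 reads: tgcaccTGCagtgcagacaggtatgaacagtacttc
The TRBJ1-4 sequence had 1 read in CTXpre mouse 1, and 1 and 7 reads in CTXpre/CD4post mice 1 and 5. The TRBJ2-1 sequence had 5, 1 and 2 reads in CTXpre/CD4post mice 2 to 4. The TRBJ2-7 sequence had 1 read in CTXpre mouse 3, and 1 and 3 reads in CTXpre/CD4post mice 2 and 4, and its amino acid sequence was the most widespread of any beta member, in 6 of 8 mice through 4 nucleotide sequences. The next 2, both with TRBJ1-1, had 4 and 3 reads over 3 mice each.

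Beta members without TRBV1 were each found in 1 mouse, and the highest had 4 reads. The 3 with most reads, chosen after their values were seen, are printed. The codon ends in J segment bases in the TRBV3 and TRBV12-1 members, and it lies where the match to germline V ends in the TRBV31 member.
TRBV3 with TRBJ2-1, CTXpre/CD4post mouse 4, 4 reads: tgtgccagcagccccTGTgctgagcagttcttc
TRBV31 with TRBJ2-3, CTXpre/CD4post mouse 5, 3 reads: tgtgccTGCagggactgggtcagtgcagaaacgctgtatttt
TRBV12-1 with TRBJ2-3, CTXpre mouse 1, 3 reads: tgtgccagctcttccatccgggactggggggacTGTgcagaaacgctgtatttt

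Alpha members had at most 9 reads. The 3 with most reads in 1 mouse and the 2 nucleotide sequences found in more than 1 mouse are printed, with the cysteine codon in capitals.
TRAV15-2-DV6-2 with TRAJ23, CTXpre mouse 3: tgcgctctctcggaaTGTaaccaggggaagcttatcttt
TRAV10D with TRAJ33, CTXpre/CD4post mouse 2: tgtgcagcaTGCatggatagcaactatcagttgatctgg
TRAV12N-2 with TRAJ26, CTXpre/CD4post mouse 4: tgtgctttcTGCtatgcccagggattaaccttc
TRAV14N-3 with TRAJ9, in 3 mice: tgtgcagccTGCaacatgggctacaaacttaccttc
TRAV12D-2 with TRAJ52, in 2 mice: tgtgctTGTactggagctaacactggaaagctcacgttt
The TRAJ23 member had 9 reads, 0.09% of its library (95% Wilson interval 0.0474% to 0.171%), and ranked 16 there. The TRAJ33 member had 5 reads and the TRAJ26 member 4, while the leading alpha members of the other mice had 2 or 3. The TRAJ9 member had 1, 2 and 2 reads in CTXpre mice 1 and 2 and CTXpre/CD4post mouse 2, and in CTXpre mouse 1 its single read differed by 1 base from a clonotype of 3 reads with serine in place of the cysteine. The TRAJ52 member had 1 read each in CTXpre mouse 1 and CTXpre/CD4post mouse 3.

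Single-base variants of more abundant clonotypes were few among the members. A sequence 1 base away with at least 3 times the reads in the same library was found for 3 alpha members (1.79%), 4 TRBV1 members (0.142%) and 1 other beta member (0.667%), against 3.98% of the alpha and 0.226% of the beta clonotypes without an internal cysteine. The share of the other beta members thus lay above that of the rest, though it rests on 1 member. Variants of clonotypes with fewer than 3 reads cannot be found by this rule.

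Alpha members used 68 of the 116 V segments and 37 of the 44 J segments listed. The segments with the largest numbers of members were TRAV12-2 (14 of 1436 clonotypes), TRAV7-5 (12 of 1872), TRAV13-1 (8 of 999), TRAV11D (7 of 362), and TRAV7N-5 and TRAV12N-3 (6 each). Among segments with at least 200 clonotypes the share was highest in TRAV11D (1.93%), TRAV10 (1.34%) and TRAV12D-2 (1.27%). Many alpha V segments of this strain are near-identical copies, so the copy named for a clonotype is uncertain. Of J segments, TRAJ22 had 18 members of 2975 clonotypes, from 8 of 8 mice, then TRAJ9 and TRAJ26 with 9 each, and TRAJ56 and 3 others with 8 each. By share, TRAJ38 (4 of 507, 0.789%), TRAJ56 (0.716%) and TRAJ13 (0.692%) led. These shares rest on few members, and no segment was tested.

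Beta members used all 12 J segments in every mouse. TRBV1 members joined TRBJ2-7 most (554 members, a median over mice of 19.6% against 22.0% of the clonotypes without an internal cysteine), then TRBJ2-1 (334), TRBJ2-5 (308), TRBJ1-1 (302) and TRBJ2-3 (291). TRBJ1-2 (chr6:41534001-41534048) was used less by TRBV1 members in 8 of 8 mice, with 1.56% to 5.14% against 5.14% to 5.76%, ranges that meet at their ends. TRBJ1-6 (chr6:41535554-41535606) was used more in 7 of 8 mice, with a median of 4.51% against 2.56%. Members were therefore the highest share of TRBJ1-6 (7.93%), followed by TRBJ1-5 (6.31%) and TRBJ1-4 (5.91%). Without TRBV1, TRBJ2-7 again had most members (37), and TRBJ1-3 and TRBJ2-2 had the highest shares, at 0.473% and 0.440%.

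TRBV1 members were longer than the rest of the beta clonotypes in every mouse, by 0.418 residues on average (14.3 ± 0.0618 against 13.9 ± 0.0269 residues, n = 8 mice). They had fewer bases outside the germline match, 9.64 ± 0.240 against 10.2 ± 0.0394, again in 8 of 8 mice. The ranges of neither measure overlapped. Alpha members had a mean of 7.68 bases outside the germline match against 4.03 in the rest over all clonotypes, and beta members without TRBV1 had 13.01 against 10.2. Since the rule picks a codon that mostly lies in these bases, this difference is a description only.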

How the data were processed

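T cell receptor alpha and beta transcripts of sorted Thy1.1-negative CD8+ cells were amplified by nested PCR without stated molecular identifiers and read on a MiSeq. Per the study's methods, the authors trimmed reads with Scythe and Sickle, called clonotypes with MiXCR and thinned each library to 10000 reads with VDJtools. The submitters' processing notes name mm10 and bcl2fastq; the MiXCR version and segment library are not given in the sources used here. The deposited tables list, for each CDR3, its read count, a fraction (not used here), V, D and J names and segment borders.

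Groups were taken from the GEO labels. All 196 V and J names were matched to GENCODE vM21 (GRCm38), and the exact match of each CDR3 to its germline V and J ends was measured. Per library, members were set against clonotypes without an internal cysteine. Groups were compared by exact two-sided Mann–Whitney tests over the 56 splits of 8 mice, and members with the rest by exact sign-flip tests over 8 mice, with Benjamini–Hochberg adjustment over 8, 6 or 2 tests (Python 3 with numpy, pandas and scipy). The functions were tested on simulated data. Wilson intervals (95%) and limits for a count of 0 (3 counts) cover counting error only; a clonotype at 0 in a library may hold up to 0.03% of its reads. The Mann–Whitney test is also the one the study used.

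Clonotypes were named by rule: per chain, the member with most reads in each mouse, the 5 with most summed reads and the 5 found in most mice; segments with most members (5) or the highest share (3, at least 200 clonotypes); and germline segments with an internal cysteine. Of these, sequences were printed for those the results turn on. Alternatives merged clonotypes by amino acid sequence, required 2 reads or 3 unassigned bases, removed single-base neighbours, replaced the test or left out each mouse. Members, lists and tests were chosen with earlier results of these data known. Mice of the same number are different animals.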

Additional observations from a re-analysis of the deposited data

Results flagged for a closer look

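Within the CTXpre/CD4post group (n = 5), 2 of 14 values per mouse lay apart from the other 4 by Dixon's criterion (0.71), which chance meets in about 1 of 20 groups. The share of beta clonotypes with an internal cysteine was 6.03% in mouse 4, while the other 4 mice lay between 4.84% and 4.98%. The mean read count of junctional beta members minus that of the rest was -0.763 in mouse 5, where the rest averaged 1.76 reads, the highest of any beta library, and the 16 junctional members had 1 read each.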

How the results depend on the processing

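Calls and directions were compared under the alternatives with those reported, in percentage points or reads, as CTXpre/CD4post minus CTXpre or as members minus the rest. Of the alternatives that left out 1 mouse, 119 gave the same direction and side of the threshold, 8 turned a direction and 1 gained a call; of the others, 73 gave the same, 10 turned a direction, 3 gained a call and 2 lost one. No difference between the treatments passed under any alternative, but without 1 mouse none could, since the smallest p is then 0.0571 (3 against 4 mice) or 0.0952 (2 against 5), so those alternatives bear on direction only. With clonotypes of 2 or more reads, the group difference became 1.48 for beta members (0.436 as reported), 0.0521 for alpha members, 0.0267 for junctional alpha members and -0.0488 for junctional beta members, and the last was -0.00135 without single-base neighbours. The read share of beta members became -0.0173 without TRBV1. Leaving out 1 mouse gave 0.209 to 0.579 for beta members, -0.0292 to 0.0189 for alpha members and -0.0209 to 0.0245 for junctional beta members. The alpha difference in mean reads passed with all 168 members (-0.248), with origin set by exact germline match (-0.247), with 6 or more bases outside that match (-0.275), and without CTXpre mouse 3 (-0.242; range over left-out mice -0.242 to -0.100). The alpha 1-read difference turned to -1.50 with 3 or more unassigned bases. For the beta chain, the 1-read difference was 7.45 there, no longer past the threshold, 0.0355 with all members and -0.306 with TRBV1 members, since TRBV1 members outnumber the others. In the same way the beta difference in mean reads was 0.0118 with all members and 0.0243 with TRBV1 members, and its comparison between treatments 0.0255 with all members. With the replicate number as a replicate block (3 pairs, smallest p 0.25) no call changed, and the beta clonotype share differed by 0.217; same-numbered mice are different animals, and their V use deviated together with correlations of -0.333 to 0.462. The exact match origin, the sets without or with TRBV1 alone and the 6-base limit were chosen after seeing the data. With 14 to 29 alpha members in a library, depth limits every alpha comparison.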
